A study of Mus musculus with 8 samples.

Results

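The genes described here encode the collagens, the laminins and the proteins that build or join basement membranes and the interstitial matrix of the mouse liver. They were chosen by name, as protein-coding rows of both count tables that are collagen chains (Col followed by a number, "a" and a number), laminin chains (Lama, Lamb or Lamc with a number) or 1 of 14 further matrix genes (Nid1, Nid2, Hspg2, Agrn, Fn1, Fbn1, Eln, Sparc, Lum, Dcn, Bgn, Tnc, Lox and Loxl2). The rule found 69 genes of 21721 protein-coding genes present in both tables, 44 of them collagen chains and 11 laminin chains. They were sorted by the place of their protein into 41 interstitial genes, 23 basement membrane genes and 5 transmembrane or anchoring collagens (Col7a1, Col13a1, Col17a1, Col23a1 and Col25a1).

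Basement membranes are thin sheets under epithelia and around vessels. They are made of a laminin network, in which each trimer holds an alpha, a beta and a gamma chain, and of a collagen IV network, with nidogens and heparan sulfate proteoglycans such as perlecan (Hspg2) and agrin (Agrn) linking them. The interstitial matrix is made of collagen fibrils, chiefly types I, III and V, decorated by small leucine-rich proteoglycans and joined to fibronectin, elastic fibres and other glycoproteins. In the normal liver the sinusoids have no continuous basement membrane, hepatic stellate cells and portal fibroblasts make most fibrillar collagen, and complete basement membranes lie around bile ducts and larger vessels.

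Whole livers of wild-type (WT) male mice of the C57BL/6J strain, 8 to 9 weeks old, were taken 24 h after treatment in 4 groups of 2 livers. TAA mice were fed and received 200 mg/kg of thioacetamide, a hepatotoxin, into the abdominal cavity, and PBS mice were fed and received buffer. Fasted_APAP mice were fasted overnight, received 500 mg/kg of acetaminophen (APAP) into the stomach and were kept without food for a further 6 h, and Fasted_PBS mice were fasted and received buffer. Each model of acute liver failure (ALF) thus had its own controls, 1 dose and 1 time point, and the agent, its route, the feeding state and the count table differed together between the models.

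Totals per liver were 35711238 to 41453751 counts in the table of the TAA model and 22431889 to 27234512 in the table of the APAP model. Levels are given as CPM, that is counts scaled to a common library size by TMM within each table, and as CPM per kb of exon where genes are compared with each other. A gene is called changed where the adjusted p of edgeR's quasi-likelihood test over all genes tested was under 0.05, and log2 fold changes are given ± SE. In the TAA model 4348 of 16847 genes tested were called (25.8%; 12.1% higher and 13.8% lower), and in the APAP model 8308 of 14794 (56.2%; 28.6% higher and 27.5% lower). Nothing in the labels says more of the 2 livers of a group than that they are separate samples, so the p-values measure the spread between these livers. The labelled tissue was checked against 6 hepatocyte markers, whose summed CPM was 73783 to 103267 in PBS, 48939 to 90846 in TAA, 106357 to 122217 in Fasted_PBS and 73298 to 86740.4 in Fasted_APAP livers. In whole tissue, fewer cells of a type and less RNA per cell cannot be told apart.

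The upstream DNA of 4 genes that lead the patterns below is shown first, since the report turns on them: Nid1 and Tnc, higher in both models and more so after TAA, Lamb3, higher after APAP, and Col5a3, lower in both. The windows are RefSeq sequence of build GRCm38.p6, 5′ to 3′ on the gene's strand, up to 250 bases before RefSeq's start of the gene and ending before any GENCODE exon. RefSeq's start of Lamb3 lies inside the longer GENCODE gene. Capitals mark the motifs searched on both strands: the AP-1 site TGANTCA, the TATA box TATAAA, the CCAAT box CCAAT, the GC box GGGCGG and the TEAD site CATTCC.
Nid1, chr13:13437352-13437550, plus strand, 199 bases: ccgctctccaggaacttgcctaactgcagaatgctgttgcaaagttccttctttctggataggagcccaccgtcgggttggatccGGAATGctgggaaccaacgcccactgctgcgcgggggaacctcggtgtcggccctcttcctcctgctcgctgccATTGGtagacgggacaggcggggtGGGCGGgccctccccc
Tnc, chr4:64047016-64047265, minus strand, 250 bases: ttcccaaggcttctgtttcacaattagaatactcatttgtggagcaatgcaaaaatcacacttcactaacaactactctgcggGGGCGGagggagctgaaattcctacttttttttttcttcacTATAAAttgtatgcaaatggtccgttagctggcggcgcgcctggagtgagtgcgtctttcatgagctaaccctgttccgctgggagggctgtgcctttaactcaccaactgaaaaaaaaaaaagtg
Lamb3, chr1:193301744-193301992, plus strand, 249 bases: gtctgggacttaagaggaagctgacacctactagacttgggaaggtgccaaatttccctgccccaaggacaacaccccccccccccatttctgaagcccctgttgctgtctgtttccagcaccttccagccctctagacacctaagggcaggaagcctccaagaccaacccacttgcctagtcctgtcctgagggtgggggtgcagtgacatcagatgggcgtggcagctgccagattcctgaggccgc
Col5a3, chr9:20815068-20815317, minus strand, 250 bases: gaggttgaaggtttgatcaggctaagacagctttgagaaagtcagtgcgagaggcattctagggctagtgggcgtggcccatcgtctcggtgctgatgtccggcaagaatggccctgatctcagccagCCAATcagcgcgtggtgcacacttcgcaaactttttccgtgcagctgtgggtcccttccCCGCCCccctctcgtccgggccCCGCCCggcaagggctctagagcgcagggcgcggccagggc
The Nid1 window held a TEAD site, a CCAAT box and a GC box, the Tnc window a GC box and a TATA box, the Col5a3 window a CCAAT box and 2 GC boxes, and the Lamb3 window none of the 5 motifs. No 2 motifs overlapped in these windows. Of 32851 RefSeq windows of 250 bases, 6.75% held the AP-1 letters, 12.4% the TATA box, 33.8% the CCAAT box, 32.7% the GC box and 12.6% the TEAD letters. Over the first 199 bases, the length of the Nid1 window, the shares were 5.55%, 9.11%, 28.2%, 24.4% and 10.6% in the same order. Of the 69 genes, 47 had 53 windows in the RefSeq table. Counted over 250 bases, as for all windows and not as cut for printing, 32 of these windows (60.4%) held a GC box. The AP-1 letters were in 1.89% of them, the TATA box in 13.2%, the CCAAT box in 28.3% and the TEAD letters in 11.3%.

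After TAA, 20 of the 54 matrix genes tested were called, 9 higher and 11 lower, which is 37.0% beside 25.8% of all genes tested. Among basement membrane genes 4 of 22 rose (Col4a1, Col4a2, Lamc1 and Nid1) and 5 fell (Col4a3, Col4a4, Lama1, Lama3 and Col18a1). Of the 5 that fell, Col4a4 passed the count filter through the control livers alone. Among interstitial genes 5 of 29 rose (Col12a1, Col6a6, Tnc, Lox and Loxl2) and 6 fell (Col3a1, Col5a3, Col14a1, Col6a1, Col6a2 and Lum); on library totals alone the interstitial calls were 7 higher and 5 lower. The median log2 fold change was -0.26 over the basement membrane genes and -0.48 over the interstitial genes, beside 0.03 over all genes tested. Without TAA replicate 2 these medians were -0.87 and -0.80, and without any 1 of the other livers they were -0.46 to -0.26 and -0.58 to -0.30. Most of the 20 calls were lost without PBS replicate 1, and most without PBS replicate 2. With 1 PBS liver left, the spread was that of the TAA livers alone. These losses thus do not tell which livers the calls leaned on. Only Nid1, Tnc, Col12a1, Col5a3 and Col4a3 were called under each of the 10 alternatives run for this comparison.

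After APAP, 32 of the 55 matrix genes tested were called, 17 higher and 15 lower, which is 58.2% beside 56.2% of all genes tested. Basement membrane genes were called in 17 of 22 cases (77.3%), 8 higher (among them Col4a1, Col4a2, Lama5, Lamb3, Lamc1, Lamc3 and Nid1) and 9 lower (Col4a5, Lama1, Lama3, Lama4, Nid2, Hspg2, Agrn, Col15a1 and Col18a1). Interstitial genes were called in 14 of 30 cases (46.7%), 8 higher (Col9a2, Col12a1, Col16a1, Col20a1, Col6a5, Dcn, Tnc and Lox, of which Col9a2, Col6a5 and Lox passed the count filter through the treated livers alone) and 6 lower (Col3a1, Col5a2, Col5a3, Col27a1, Col9a3 and Col6a3), or 11 higher and 4 lower on library totals alone. Of the 6 lower, Col9a3 passed the count filter through the control livers alone. The medians were 0.05 and 0.17, beside 0.04 over all genes tested. Of the 32 calls, 10 were lost without Fasted_APAP replicate 1 and 10 without Fasted_PBS replicate 1, which left 21 (Col9a2 was then below the count filter) and 22 of them called.

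**Figure D1:**
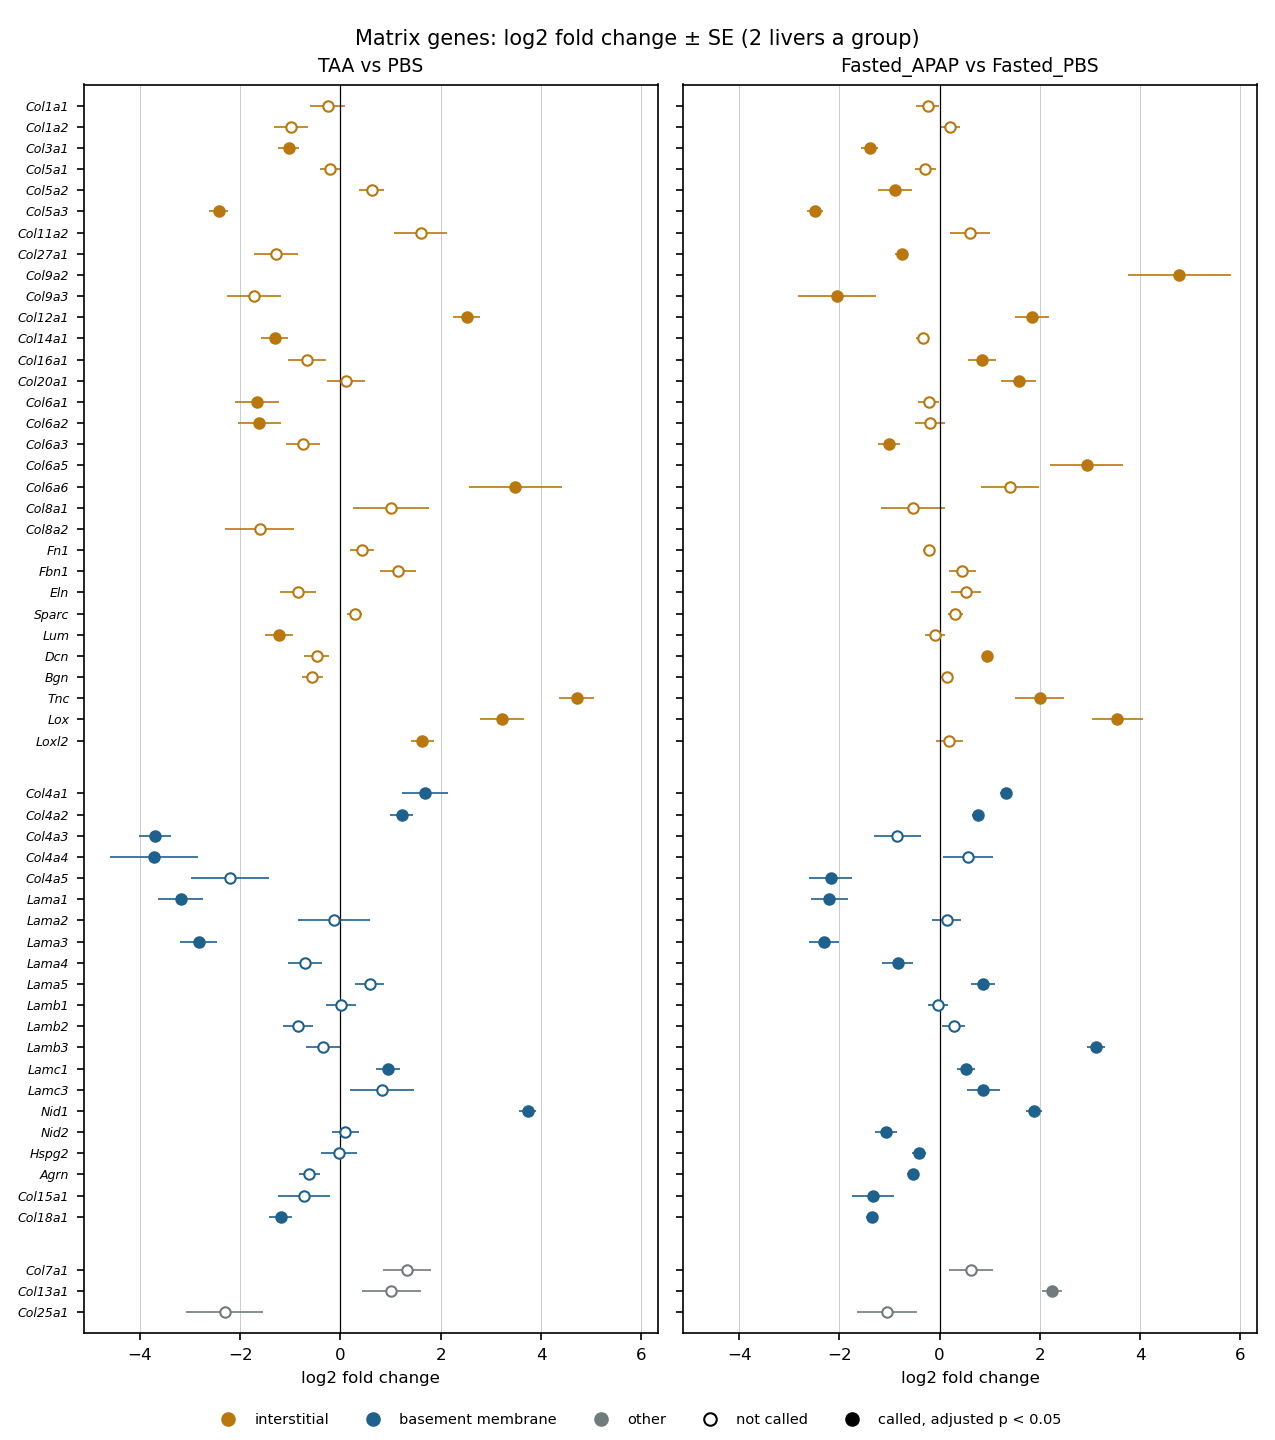
Log2 fold change (horizontal axis) of the matrix genes tested and reported, TAA vs PBS on the left and Fasted_APAP vs Fasted_PBS on the right, with bars of 1 SE; filled points passed an adjusted p of 0.05. Both classes hold genes on both sides of 0, with Tnc (4.71) and Nid1 (3.73) highest after TAA.

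Of 53 matrix genes tested in both models, 7 rose in both (Col4a1, Col4a2, Lamc1, Nid1, Col12a1, Tnc and Lox), 5 fell in both (Lama1, Lama3, Col18a1, Col3a1 and Col5a3), and 0 were called in opposite directions by edgeR (also 0 at an unadjusted p under 0.05 and 0 by DESeq2). That is 22.6% called in the same direction, beside 21.0% of the 13812 genes tested in both models, of which 1.09% were called in opposite directions. A further 8 were called after TAA alone, 18 after APAP alone and 15 in neither model. Those 15, by edgeR with TMM scaling, were Col1a1, Col1a2, Col5a1, Col11a2, Col8a1, Fn1, Fbn1, Eln, Sparc, Bgn, Lama2, Lamb1, Lamb2, Col7a1 and Col25a1.

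Collagen IV split by chain. The α1 and α2 chains, which form the collagen IV network of most basement membranes, are transcribed in opposite directions from neighbouring starts (Col4a1, chr8:11198423-11312826; Col4a2, chr8:11312805-11449287; GRCm38). Col4a1 stood at 40.2 and 36.5 CPM in the PBS livers and at 68.5 and 178 CPM in the TAA livers, a log2 fold change of 1.68 ± 0.45 (adjusted p = 0.0499). Both TAA livers lay above both controls and apart from each other. After APAP it went from 30.9 and 29.1 CPM to 82.3 and 69.0 CPM, 1.33 ± 0.12 (adjusted p = 1.11e-05), with close replicates. Col4a2 rose with it, from 36.3 and 31.5 CPM to 62.9 and 95.0 CPM after TAA, 1.22 ± 0.23 (adjusted p = 0.0179). After APAP its values were 26.4 and 25.2 CPM against 47.4 and 40.9 CPM, 0.77 ± 0.12 (adjusted p = 0.000372). The TAA calls of both genes were lost without either control liver, Col4a1 at adjusted p = 0.162 and 0.196 and Col4a2 at 0.0848 and 0.120 without PBS replicate 1 and 2. Col4a1 also lost it with RLE scaling (0.0511), without the count filter (0.0564) and with the replicate block (0.0813). Its TAA call thus held in 5 of 10 alternatives, with log2 fold changes from 0.84 (without TAA replicate 2) to 2.21 (without TAA replicate 1). The APAP calls of both held in all 10 alternatives.

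Of the α3, α4 and α5 chains, which make the collagen IV of kidney and lung basement membranes, Col4a3 and Col4a4 fell after TAA and Col4a5 fell after APAP. Col4a3 (chr1:82586921-82722059) had 209 and 208 counts in the PBS livers and 15 and 18 in the TAA livers, or 5.60 and 5.58 against 0.383 and 0.472 CPM. Its log2 fold change was -3.70 ± 0.33 (adjusted p = 0.00343), called in each of the 10 alternatives. In the APAP model it had 36 and 18 counts in the controls and 15 and 18 in the treated livers, -0.85 ± 0.47 (adjusted p = 0.149), with the fasted controls at 1.46 and 0.831 CPM, scaled within their own table. Its exons share 563 bases with the antisense gene C430014B12Rik, whose log2 fold changes were -0.30 ± 0.48 after TAA and -0.65 ± 0.44 after APAP, neither called. Its neighbour Col4a4 (chr1:82448423-82586849) had 122 and 34 counts in PBS and 3 and 9 in TAA livers, -3.72 ± 0.88 (adjusted p = 0.0322), but 11 and 13 against 16 and 24 in the APAP model, 0.56 ± 0.49 (adjusted p = 0.360). In the TAA model Col4a4 passed the count filter through the control livers alone, and its call held in 5 of 10 alternatives. The Col4a4 call was lost without any 1 of the 4 livers, at adjusted p of 0.0518 to 0.158. Col4a5 fell after APAP, from 2.60 and 2.54 to 0.780 and 0.367 CPM, -2.17 ± 0.43 (adjusted p = 0.00184). After TAA its value was -2.21 ± 0.78 (adjusted p = 0.0917), and without TAA replicate 1, the higher of the treated livers, it was -4.10 (adjusted p = 0.0128; with all livers 0.0290 by DESeq2). Col4a6 was below the count filter in both tables.

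Nid1 (chr13:13437551-13512269), which encodes nidogen-1, the link between laminin and collagen IV, gave the smallest p of all matrix genes after TAA. It stood at 17.0 and 17.1 CPM in the PBS livers and at 215 and 239 CPM in the TAA livers, a log2 fold change of 3.73 ± 0.17 (adjusted p = 0.00163). After APAP it went from 11.3 and 10.3 to 46.2 and 33.6 CPM, 1.88 ± 0.17 (adjusted p = 1.24e-05). No liver overlapped the other group in either model, and both calls held in all 10 alternatives. Its paralogue Nid2 was not called after TAA, at 5.46 and 8.43 against 7.69 and 7.18 CPM, 0.10 ± 0.27 (adjusted p = 0.813), and after APAP it fell, from 6.38 and 7.57 to 3.53 and 3.08 CPM, -1.08 ± 0.22 (adjusted p = 0.00238).

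**Figure D2:**
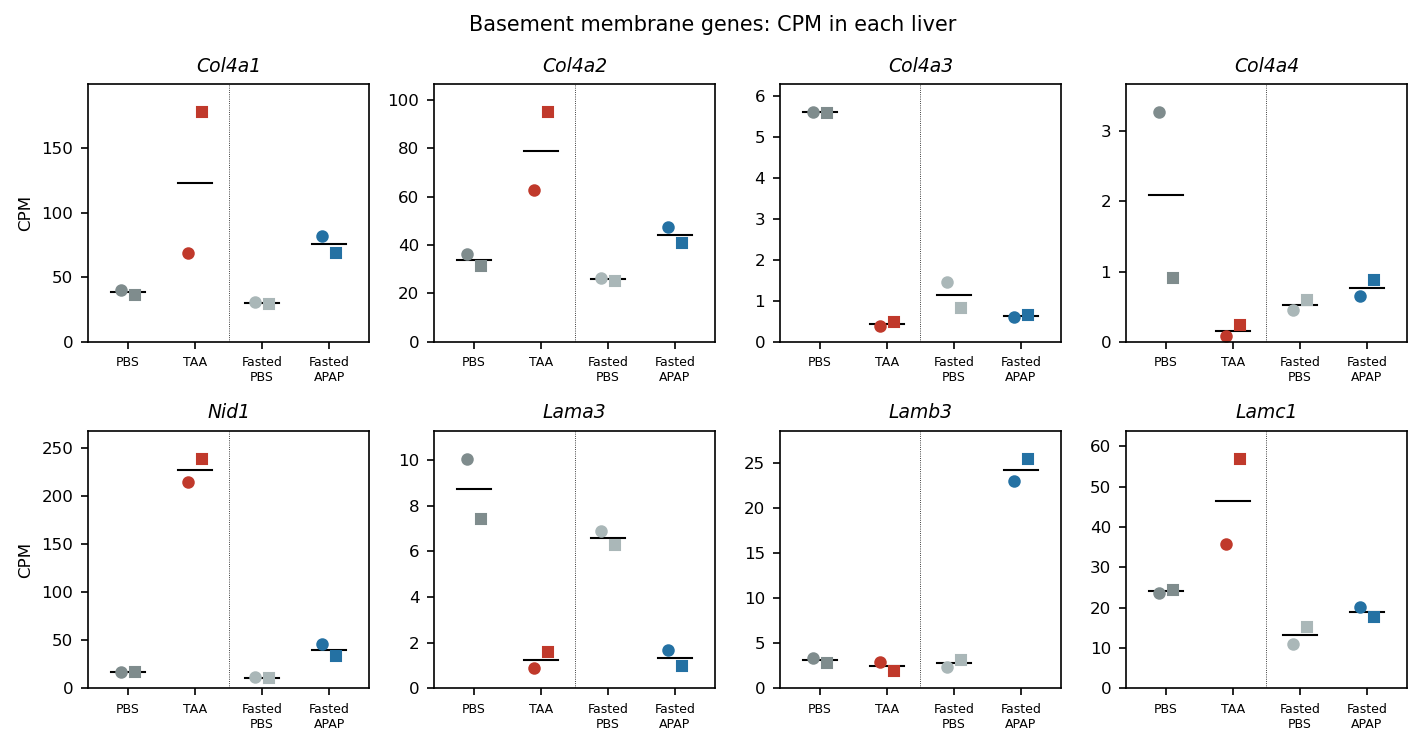
CPM (vertical axis, each panel on its own scale from 0) of 8 basement membrane genes in the 8 livers; circles are replicate 1, squares replicate 2, bars group means, and the dotted line parts the 2 tables. Nid1 reached 215 and 239 CPM after TAA, and Lamb3 reached 23.0 and 25.5 CPM after APAP alone.

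Laminin chains also split: the α3 and β3 chains, which are found in epithelial laminins, were called in opposite directions after APAP. Lama3, the α3 chain, fell in both models: from 10.1 and 7.43 to 0.895 and 1.57 CPM after TAA, -2.82 ± 0.37 (adjusted p = 0.00734), and from 6.90 and 6.28 to 1.68 and 0.992 CPM after APAP, -2.31 ± 0.30 (adjusted p = 0.000124). Without PBS replicate 1 the TAA value was -2.61 (adjusted p = 0.0501). Lamb3 (chr1:193207699-193343878), the β3 chain, stood at 3.37 and 2.85 CPM in PBS and 2.91 and 1.97 CPM in TAA livers, -0.35 ± 0.33 (adjusted p = 0.473), where the groups overlapped. After APAP it went from 2.40 and 3.19 to 23.0 and 25.5 CPM, 3.12 ± 0.18 (adjusted p = 7.22e-07), the smallest p of all matrix genes in that model. The APAP calls of both chains held in each of the 10 alternatives.

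Among the more widespread chains, Lamc1, the γ1 chain of most laminins, rose in both models. Its CPM went from 23.6 and 24.5 to 35.8 and 56.9 after TAA, 0.95 ± 0.24 (adjusted p = 0.0391), and from 11.0 and 15.2 to 20.0 and 17.6 after APAP, 0.52 ± 0.17 (adjusted p = 0.0253). Of 10 alternatives, 6 kept the call after TAA and 8 kept it after APAP. The TAA call was lost without PBS replicate 1 or 2 or TAA replicate 2 (adjusted p = 0.165, 0.162 and 0.0767), and the APAP call without Fasted_PBS replicate 1 (0.212) or Fasted_APAP replicate 1 (0.140). The β1 and β2 chains were not called. Lamb1, the β1 chain, stood at 9.72 and 10.7 CPM in PBS, 7.54 and 13.0 in TAA, 6.30 and 7.02 in Fasted_PBS and 6.00 and 7.01 in Fasted_APAP livers, with log2 fold changes of 0.01 ± 0.30 and -0.03 ± 0.20. Lamb2, the β2 chain, stood at 5.46 and 6.15, 2.53 and 3.93, 4.43 and 3.65, and 4.68 and 5.14 CPM in the same order, with -0.85 ± 0.31 and 0.28 ± 0.23, and none of these changes was called. Lama1 fell in both models, from 3.29 and 6.20 to 0.537 and 0.498 CPM after TAA, -3.19 ± 0.44 (adjusted p = 0.00838; 0.0540 without PBS replicate 2), and from 2.92 and 4.20 to 0.616 and 0.918 CPM after APAP, -2.20 ± 0.37 (adjusted p = 0.000661). Lama5 rose after APAP, 3.94 and 5.03 against 9.57 and 6.72 CPM, 0.86 ± 0.24 (adjusted p = 0.0117), but not without Fasted_PBS replicate 1 (0.0666) or Fasted_APAP replicate 1 (0.119). After TAA it stood at 0.58 ± 0.29 (adjusted p = 0.189). Lamc3 and Lama4 were called after APAP near the threshold, at 0.87 ± 0.33 (adjusted p = 0.0450) and -0.84 ± 0.32 (adjusted p = 0.0447), and each lost its call whichever of the 4 livers was left out, at adjusted p of 0.0504 to 0.235 and 0.0595 to 0.187. The APAP call held in 3 of 10 alternatives for Lamc3 and in 2 of 10 for Lama4. Lama2, the α2 chain of muscle, was not called (-0.14 ± 0.72 and 0.14 ± 0.29).

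Perlecan and agrin were not called higher in either model. Agrn stood at 61.9 and 75.7 CPM in PBS and 37.4 and 51.8 CPM in TAA livers, -0.63 ± 0.21 (adjusted p = 0.0797; 0.0392 without TAA replicate 2 and 0.0484 with DESeq2), and fell after APAP from 35.3 and 38.8 to 27.4 and 23.6 CPM, -0.54 ± 0.12 (adjusted p = 0.00405). Hspg2 showed no call after TAA, 14.6 and 20.6 against 11.9 and 22.7 CPM, -0.03 ± 0.35. After APAP it fell by a small amount, 16.1 and 15.3 against 12.5 and 11.2 CPM, -0.41 ± 0.14 (adjusted p = 0.0337). The APAP call held in 5 of 10 alternatives, with log2 fold changes from -0.49 to -0.23 and adjusted p of up to 0.215. That call was lost without Fasted_PBS replicate 1 or either Fasted_APAP liver, at adjusted p of 0.0518 to 0.150.

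Col18a1, the multiplexin whose C-terminal fragment is endostatin, was the most abundant basement membrane gene per length and fell in both models. It stood at 759 and 1057 CPM in PBS and 397 and 397 CPM in TAA livers, -1.19 ± 0.23 (adjusted p = 0.0196; 0.0585 and 0.127 without PBS replicate 1 and 2). In the APAP model it went from 887 and 881 to 346 and 345 CPM, -1.36 ± 0.12 (adjusted p = 8.55e-06), called in all 10 alternatives. The other multiplexin, Col15a1, fell after APAP, 6.09 and 5.08 against 1.19 and 3.19 CPM, -1.34 ± 0.42 (adjusted p = 0.0275), though not without Fasted_PBS replicate 1, Fasted_PBS replicate 2 or Fasted_APAP replicate 1 (0.116, 0.0665 and 0.0540). After TAA it had 11.1 and 3.54 CPM beside 12.7 and 11.4, -0.72 ± 0.52 (adjusted p = 0.348), and without TAA replicate 1 -1.77 (adjusted p = 0.0135). Hepatocytes are a known source of collagen XVIII, and 2 of 6 hepatocyte markers fell after TAA (Cyp2e1, -2.13 ± 0.53, and Cps1, -1.18 ± 0.30) and 5 of 6 after APAP (among them Cps1, -2.30 ± 0.18, and Alb, -0.44 ± 0.16). That is 33.3% and 83.3%, beside 13.8% and 27.5% of all genes tested called lower. The part of these cells in the Col18a1 values was not tested.

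Type I collagen, the main fibrillar collagen of scar, was not called by edgeR in either model. Col1a1, which encodes the α1 chain of type I collagen, stood at 16.0 and 8.54 CPM in PBS and 8.54 and 11.98 CPM in TAA livers, -0.26 ± 0.35 (adjusted p = 0.621), and at 6.50 and 7.02 against 4.64 and 6.83 CPM in the APAP model, -0.23 ± 0.23 (adjusted p = 0.413). The groups overlapped in both models. Its partner chain Col1a2 stood at 24.9 and 21.4 against 7.82 and 15.6 CPM after TAA, -0.98 ± 0.34 (adjusted p = 0.0886; 0.0105 without TAA replicate 2 and 0.0299 with DESeq2), and at 8.73 and 11.6 against 10.1 and 13.2 CPM after APAP, 0.20 ± 0.20 (adjusted p = 0.410). Of 8 fibrillar chains tested, edgeR called 0 higher and 2 lower after TAA (Col3a1 and Col5a3), and 0 higher and 4 lower after APAP (Col3a1, Col5a2, Col5a3 and Col27a1). The share called in either direction was thus below that of all genes tested, 25.8% after TAA and 56.2% after APAP. The share called lower was above that of all genes, 13.8% and 27.5%. With 8 chains, these differences in share were not tested. DESeq2 called Col1a2 and Col27a1 lower after TAA too, the latter at adjusted p = 0.0111, and did not call Col5a2 after APAP (0.0896). At an unadjusted p under 0.05, and by DESeq2, 1 chain was higher after TAA and 0 after APAP; it was Col11a2, at 1.60 ± 0.53 with edgeR (adjusted p = 0.0775; 0.0412 with DESeq2). The median over the 8 chains was -0.62 after TAA and -0.52 after APAP.

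Col3a1, the chain of type III collagen, fell from 50.03 and 42.2 to 18.9 and 26.3 CPM after TAA, -1.03 ± 0.21 (adjusted p = 0.0213; 0.104 and 0.0852 without PBS replicate 1 and 2). After APAP it went from 22.5 and 30.4 to 9.36 and 10.7 CPM, -1.40 ± 0.17 (adjusted p = 8.39e-05). Col5a3 (chr9:20770050-20815067), the least widespread chain of type V collagen, fell in both models: 42.7 and 53.8 against 8.31 and 9.57 CPM after TAA, -2.43 ± 0.19 (adjusted p = 0.00304), and 51.3 and 40.5 against 9.08 and 7.42 CPM after APAP, -2.48 ± 0.16 (adjusted p = 1.40e-06). It was called in all 10 alternatives of each model, and its difference between the models was 0.02 ± 0.26. The other type V chains did otherwise. Col5a1 was not called (-0.21 ± 0.20 and -0.29 ± 0.21), and Col5a2 stood at 5.57 and 5.21 against 6.88 and 9.70 CPM after TAA, 0.62 ± 0.25 (adjusted p = 0.128). After APAP Col5a2 fell, 3.74 and 2.82 against 1.31 and 2.20 CPM, -0.89 ± 0.34 (adjusted p = 0.0478), but not without Fasted_PBS replicate 1 (0.191) or Fasted_APAP replicate 1 (0.260). The APAP call of Col5a2 held in 4 of 10 alternatives. Col27a1, a fibrillar collagen of cartilage, fell after APAP, -0.76 ± 0.12 (adjusted p = 0.000528). After TAA its livers stood at 35.9 and 14.0 CPM beside 62.7 and 59.5, -1.29 ± 0.44 (adjusted p = 0.0881; 0.00446 without TAA replicate 1 and 0.0370 without TAA replicate 2).

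The fibril-associated collagens, which sit on the surface of fibrils, split between Col12a1 and Col14a1. Col12a1 rose in both models, from 2.12 and 2.47 to 10.8 and 15.4 CPM after TAA, 2.51 ± 0.27 (adjusted p = 0.00507), and from 2.52 and 1.20 to 7.84 and 5.66 CPM after APAP, 1.84 ± 0.35 (adjusted p = 0.00165). Both calls held in all 10 alternatives. Col14a1, which is abundant per length in control liver, fell after TAA from 49.9 and 52.0 to 15.01 and 26.0 CPM, -1.31 ± 0.27 (adjusted p = 0.0232; 0.0915 and 0.117 without PBS replicate 1 and 2). After APAP it stood at 27.9 and 32.0 against 26.0 and 21.3 CPM, -0.34 ± 0.14 (adjusted p = 0.0569; 0.0367 without Fasted_PBS replicate 1 and 0.0275 without Fasted_APAP replicate 1). Col16a1 (0.85 ± 0.28, adjusted p = 0.0279) and Col20a1 (1.58 ± 0.35, adjusted p = 0.00332) rose after APAP and were not called after TAA. The APAP call held in 7 of 10 alternatives for Col16a1 and in 9 of 10 for Col20a1. The Col16a1 call was lost without Fasted_PBS replicate 1 (0.126) or Fasted_APAP replicate 1 (0.216), and that of Col20a1 without Fasted_APAP replicate 1 (0.0502). Col9a2 had 1 and 0 counts in Fasted_PBS and 25 and 12 in Fasted_APAP livers and passed the count filter through the treated livers, so its call carries little beyond those counts. Col9a3 had 17 and 10 counts against 6 and 1, -2.04 ± 0.78 (adjusted p = 0.0471), and kept its call under 2 of 10 alternatives. It passed the count filter through the control livers alone.

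Type VI collagen, which forms beaded microfibrils from α1, α2 and a further chain, fell after TAA in 2 of its chains. Col6a1 stood at 9.64 and 10.7 CPM in PBS and 1.87 and 4.53 CPM in TAA livers, -1.66 ± 0.43 (adjusted p = 0.0414), and Col6a2 at 8.44 and 5.61 against 1.51 and 3.07 CPM, -1.62 ± 0.42 (adjusted p = 0.0421). The call held in 7 of 10 alternatives for Col6a1 and in 4 of 10 for Col6a2. Without PBS replicate 1 or 2 both calls were lost, at adjusted p of 0.128 and 0.165 for Col6a1 and 0.173 and 0.105 for Col6a2, and Col6a2 also lost its call without TAA replicate 1 (0.0849). After APAP neither was called, -0.21 ± 0.21 and -0.20 ± 0.30, while Col6a3 fell, 7.39 and 6.19 against 3.29 and 3.49 CPM, -1.003 ± 0.22 (adjusted p = 0.00328). The rarer chains were near the limit of counting. For Col6a6, PBS replicate 1 was below the filter's 10 counts, and the gene passed with the treated livers. Its TAA call held in 5 of 10 alternatives. Col6a6 had 2 and 17 counts in PBS and 163 and 61 in TAA livers, 3.48 ± 0.93 (adjusted p = 0.0453), a call lost without PBS replicate 1, PBS replicate 2 or TAA replicate 1 (adjusted p = 0.128, 0.0708 and 0.146). Col6a5 had 1 and 3 counts in Fasted_PBS and 16 and 20 in Fasted_APAP livers, called at adjusted p = 0.00625 (0.0791 without Fasted_PBS replicate 1 and 0.0683 without Fasted_APAP replicate 2), and it too passed the count filter through the treated livers alone.

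**Figure D3:**
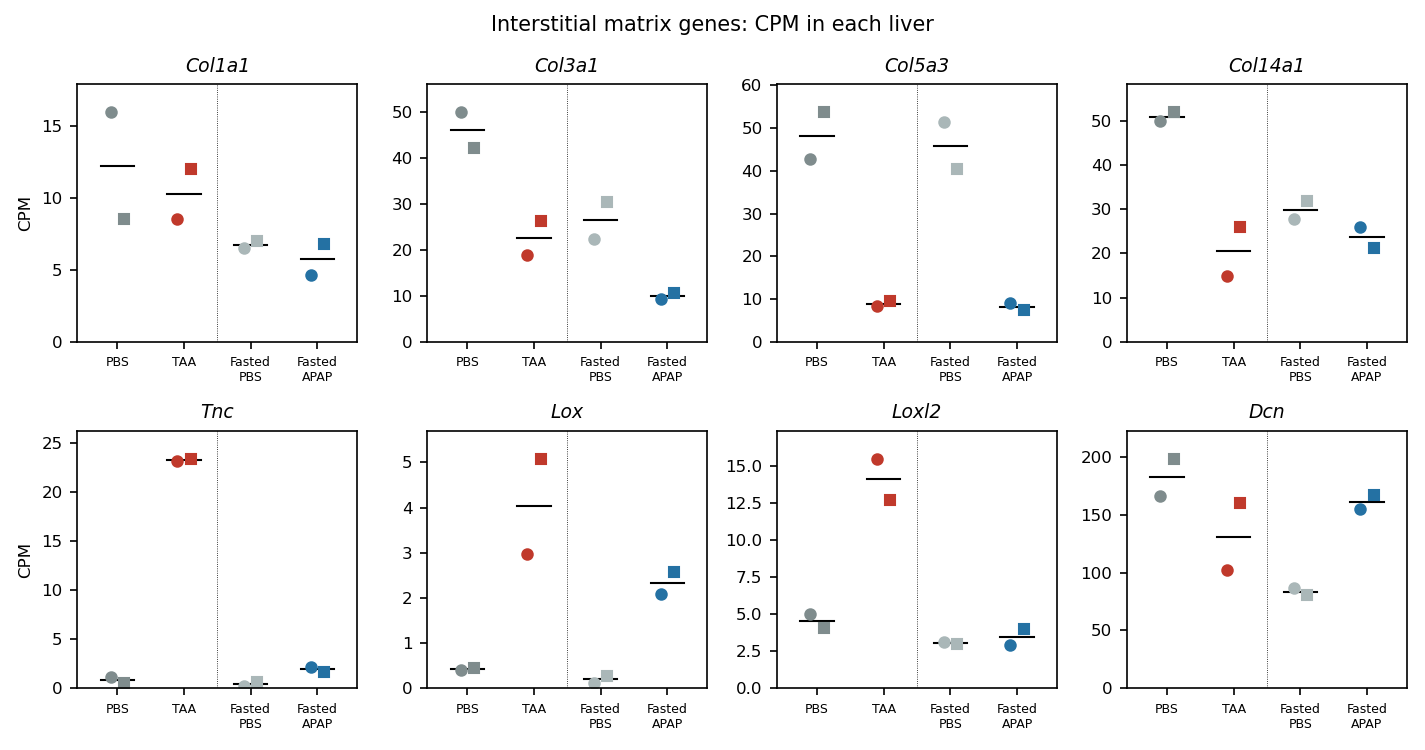
CPM (vertical axis, each panel on its own scale from 0) of 8 interstitial genes in the 8 livers; circles are replicate 1, squares replicate 2, bars group means, and the dotted line parts the 2 tables. Tnc reached 23.2 and 23.4 CPM after TAA, while Col5a3 stood below 10 CPM in all 4 treated livers.

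Tnc and Lox rose in both models and Loxl2 rose after TAA. Tnc (chr4:63959785-64047015) encodes tenascin-C, a glycoprotein that is scarce in adult tissue and appears in healing wounds. It had 44 and 22 counts in PBS and 906 and 892 in TAA livers, that is 1.18 and 0.590 against 23.2 and 23.4 CPM and a log2 fold change of 4.71 ± 0.35 (adjusted p = 0.00297). After APAP it had 7 and 15 against 53 and 46 counts, 1.99 ± 0.49 (adjusted p = 0.00618; 0.0539 without Fasted_APAP replicate 1). Fasted_PBS replicate 1, at 7 counts of Tnc, was below the filter's 10 counts, and Tnc passed there with the treated livers. Lox, which encodes lysyl oxidase, the enzyme that starts the crosslinks of collagen and elastin, rose in both models, with a difference between them of -0.36 ± 0.68 (adjusted p = 0.809). Its CPM went from 0.402 and 0.456 to 2.97 and 5.08 after TAA, 3.22 ± 0.43 (adjusted p = 0.00790; 0.0567 and 0.0613 without PBS replicate 1 and 2). After APAP Lox had 3 and 6 counts against 51 and 70, 3.54 ± 0.51 (adjusted p = 0.000240), and passed the count filter through the treated livers alone. Loxl2, a lysyl oxidase that also acts on collagen IV, rose after TAA from 5.03 and 4.08 to 15.5 and 12.7 CPM, 1.63 ± 0.23 (adjusted p = 0.00827; 0.0520 and 0.0708 without PBS replicate 1 and 2). In the APAP model its groups overlapped, 3.13 and 3.002 against 2.96 and 4.04 CPM, 0.19 ± 0.27 (adjusted p = 0.577).

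The small leucine-rich proteoglycans, which bind fibrils and set their width, differed from each other. Dcn (decorin) stood at 166 and 199 CPM in PBS and 102 and 160.2 CPM in TAA livers, -0.48 ± 0.25 (adjusted p = 0.216; 0.0463 without TAA replicate 2), and rose after APAP from 86.6 and 80.6 to 155 and 167 CPM, 0.95 ± 0.11 (adjusted p = 6.15e-05). Lum (lumican) fell after TAA from 11.1 and 9.53 to 3.48 and 5.32 CPM, -1.23 ± 0.28 (adjusted p = 0.0288), a call lost without PBS replicate 1, PBS replicate 2 or TAA replicate 1 (0.129, 0.109 and 0.0645). After APAP its livers overlapped the controls, 6.99 and 6.05 against 5.54 and 6.72 CPM, -0.09 ± 0.20 (adjusted p = 0.739). Bgn (biglycan) was not called in either model, 90.8 and 91.0 against 50.1 and 73.1 CPM after TAA, -0.56 ± 0.21 (adjusted p = 0.104; 0.0273 without TAA replicate 2), and 55.0 and 52.0 against 63.3 and 54.9 CPM after APAP, 0.14 ± 0.11 (adjusted p = 0.304; 0.0373 on library totals alone).

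Fibronectin, the elastic fibre genes and osteonectin were not called in either model by edgeR with TMM scaling. Fn1, whose plasma form is made by hepatocytes, was the most abundant interstitial gene per length, at 1347 and 1689.9 CPM in PBS, 2245 and 1841 CPM in TAA, 1143 and 1199 CPM in Fasted_PBS and 976 and 1051 CPM in Fasted_APAP livers. Its log2 fold changes were 0.43 ± 0.24 (adjusted p = 0.235) and -0.21 ± 0.12 (adjusted p = 0.173). Fbn1 (fibrillin-1) stood at 5.17 and 3.19 against 6.98 and 11.6 CPM after TAA, 1.15 ± 0.37 (adjusted p = 0.0712; 0.0418 without TAA replicate 1, 0.0254 with DESeq2 and 0.0460 on library totals alone), and its exons share 2442 of 12128 bases with the antisense gene Gm9913. After APAP it stood at 2.72 and 2.49 against 3.90 and 3.23 CPM, 0.45 ± 0.27. Eln (elastin) had 3.0 and 2.15 CPM against 1.30 and 1.55 after TAA, -0.85 ± 0.36, and 2.48 and 4.11 against 4.11 and 5.32 after APAP, 0.52 ± 0.30 (adjusted p = 0.157; 0.0460 without Fasted_PBS replicate 2). Sparc (osteonectin, a collagen-binding protein) had 53.8 and 52.8 CPM against 59.8 and 70.1 after TAA, 0.28 ± 0.15, and 39.8 and 54.3 against 61.6 and 55.1 after APAP, 0.31 ± 0.15 (adjusted p = 0.107; 0.0131 without Fasted_PBS replicate 2, 0.0363 on library totals alone and 0.0461 without the count filter).

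Of the transmembrane and anchoring collagens, 3 of 5 were tested and 1 was called. Col13a1, a membrane-bound collagen, rose after APAP from 2.80 and 2.45 to 11.9 and 13.0 CPM, 2.24 ± 0.19 (adjusted p = 8.84e-06), called in all 10 alternatives. After TAA it stood at 1.23 and 3.06 against 2.61 and 6.05 CPM, 1.01 ± 0.59 (adjusted p = 0.256), where the groups overlapped. Col7a1, the anchoring fibril collagen of skin, stood at 1.33 ± 0.47 after TAA (adjusted p = 0.0921) and 0.63 ± 0.44 after APAP. Col25a1, a transmembrane collagen, stood at -2.31 ± 0.77 after TAA (adjusted p = 0.0801; 0.0422 with DESeq2) and -1.05 ± 0.59 after APAP. The 13 genes tested in neither model, among them Col2a1, Col11a1 and Col10a1 of cartilage, had at most 18 counts in any liver.

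Levels per length show which genes carry the matrix transcripts of these livers. In PBS livers Fn1 and Col18a1 stood at 129.9 and 129.3 CPM per kb, followed by Dcn at 31.3, Bgn at 14.9 and Sparc at 14.1, while Col1a1, Col1a2 and Col3a1 stood at 1.87, 1.86 and 4.70. Fn1 and Col18a1 together with 3 small glycoproteins thus lay above every fibrillar chain. The share of Fn1 in the summed CPM per kb of all 69 genes was 32.3% and 33.3% in PBS, 50.6% and 39.8% in TAA, 31.7% and 32.5% in Fasted_PBS and 33.8% and 36.3% in Fasted_APAP livers. That of Col18a1 was 30.3% and 34.7%, 14.9% and 14.3%, 40.9% and 39.8%, and 19.9% and 19.8% in the same order. After TAA, Nid1 reached 32.7 CPM per kb, above every matrix gene but Fn1 and Col18a1.

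By summed CPM per kb, the interstitial collagen chains stood lower and the basement membrane genes other than the multiplexins stood higher in the treated livers of both models, but the whole classes did not part in this way. The 41 interstitial genes summed to 214 and 248 in PBS, 258 and 244 in TAA, 159 and 166 in Fasted_PBS and 156 and 161 in Fasted_APAP livers, a ratio of treated to control means of 1.08 after TAA and 0.974 after APAP. Without Fn1 the ratios were 0.750 and 1.15. The 31 interstitial collagen chains summed to 35.1 and 35.0 CPM per kb in PBS and 15.4 and 18.6 in TAA livers, and to 23.0 and 23.1 in Fasted_PBS and 14.8 and 14.0 in Fasted_APAP livers. Much of this fall lay in few chains, singled out after their values were seen. Mean Col5a3 went from 7.08 to 1.31 after TAA and 6.74 to 1.21 after APAP. Col3a1 went from 4.70 to 2.30 and 2.69 to 1.02, and Col27a1 from 4.69 to 1.92 and 2.71 to 1.60. Col14a1 went from 7.26 to 2.92 after TAA. Of the chains tested, 2 rose and 5 fell after TAA, and 5 rose and 6 fell after APAP. That is 36.8% and 55.0%, beside 25.8% and 56.2% of all genes. The 21 basement membrane genes without Col15a1 and Col18a1 summed to 31.3 and 32.8 against 63.4 and 93.1, and to 21.5 and 22.2 against 39.0 and 33.7. With the multiplexins the 23 basement membrane genes summed to 141 and 185 in PBS, 122 and 150.1 in TAA, 149 and 149 in Fasted_PBS and 88.5 and 83.3 in Fasted_APAP livers. These sums overlapped between PBS and TAA livers, while both Fasted_APAP livers stood below their controls. The higher sum was that of few genes: once Nid1, Col4a1 and Col4a2 were left out too, a choice made after their values were seen, the 18 remaining basement membrane genes summed to 17.9 and 20.7 in PBS, 13.8 and 20.5 in TAA, 11.8 and 13.0 in Fasted_PBS and 14.2 and 13.4 in Fasted_APAP livers. The ratio of treated to control means was 0.485 after TAA and 0.623 after APAP for the interstitial collagen chains (0.559 and 0.706 on library totals alone), and 2.44 and 1.66 for the basement membrane genes without multiplexins (2.81 and 1.88). With 2 livers a group an exact permutation test cannot go below a two-sided p of 0.333, so the sums carry no test.

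**Figure D4:**
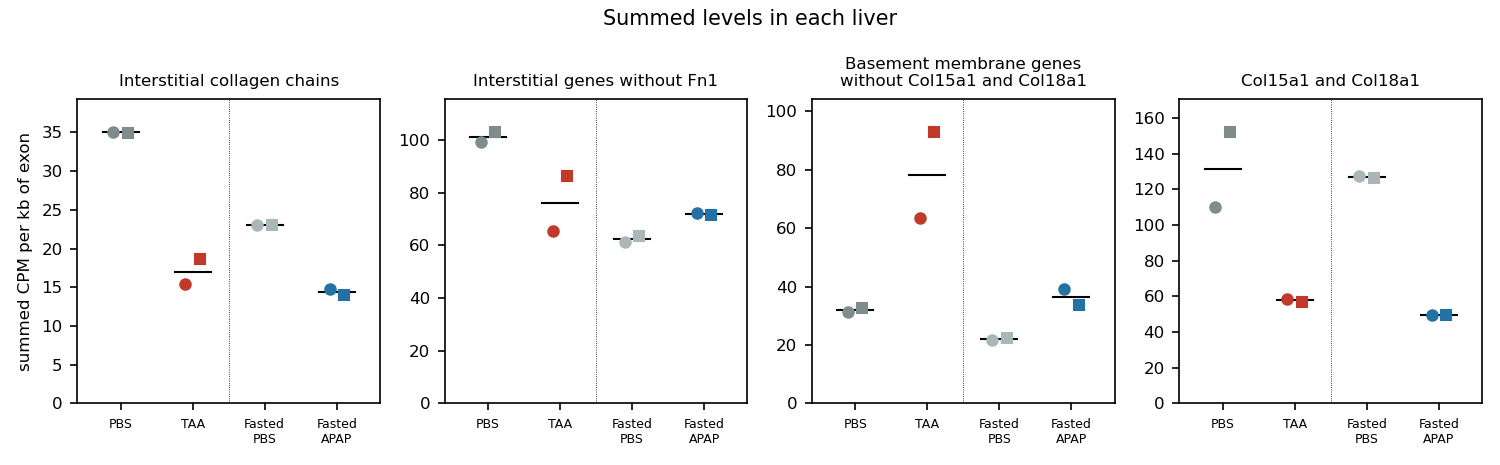
Summed CPM per kb of exon (vertical axis from 0) in the 8 livers for 4 sets of genes; circles are replicate 1, squares replicate 2, bars group means, and the dotted line parts the 2 tables. The interstitial collagen chains stand at 15.4 and 18.6 in TAA livers while the basement membrane genes without multiplexins reach 63.4 and 93.1.

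Whether a gene's change differed between the models was tested over all 8 livers, where 11.0% of 17381 genes were called. Of the 55 matrix genes tested 7 were called (12.7%). Nid1 (1.82 ± 0.23, adjusted p = 0.00320), Tnc (2.68 ± 0.61, adjusted p = 0.0268) and Loxl2 (1.41 ± 0.34, adjusted p = 0.0335) had the higher change after TAA. Lamb3 (-3.50 ± 0.35, adjusted p = 0.00133), Dcn (-1.45 ± 0.29, adjusted p = 0.0160), Col4a3 (-2.88 ± 0.54, adjusted p = 0.0129) and Col4a4 (-4.30 ± 1.05, adjusted p = 0.0351) had the higher change after APAP. Of these, Nid1 and Lamb3 were called under each of the 14 alternatives. Leaving out Fasted_APAP replicate 2 left the fewest, 2 of 7, and the other fasted livers left 3 or 4, while without TAA replicate 2 there were 17 calls, all 7 among them. Agent, route, feeding state and table cannot be told apart in this difference.

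**Figure D5:**
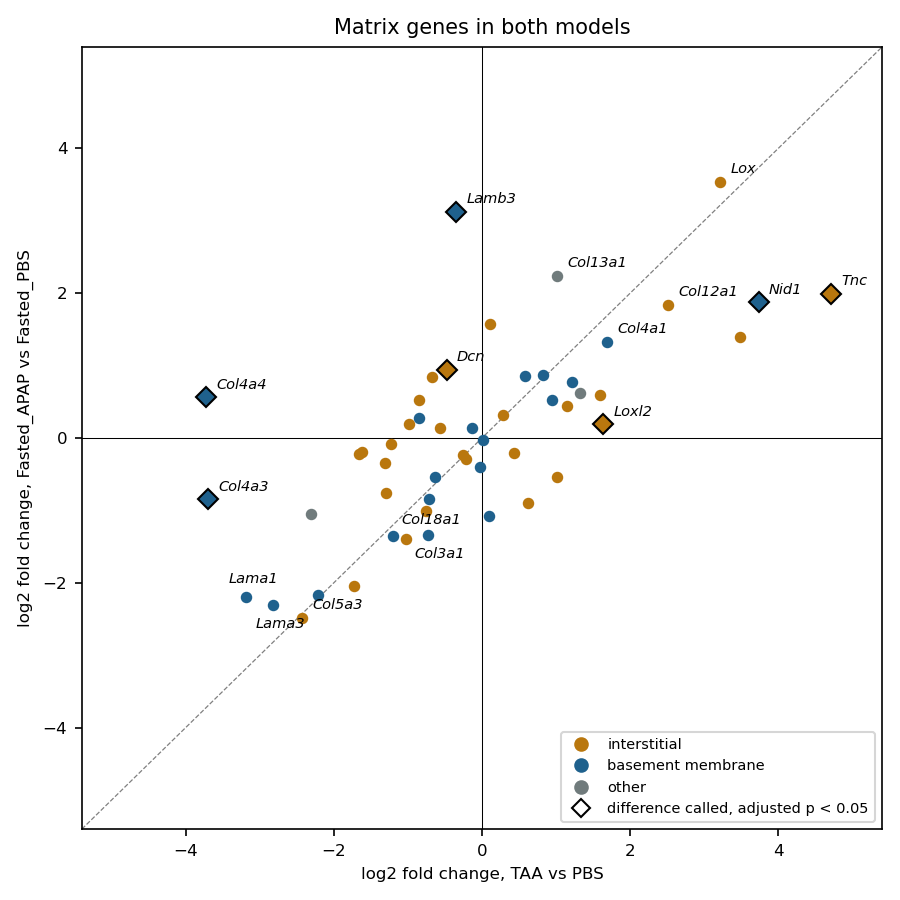
Log2 fold change after APAP (vertical axis) against that after TAA (horizontal axis) for the matrix genes tested in both models and reported; the dashed line marks equal changes and diamonds the 7 genes whose difference was called. Lamb3 lies at -0.35 and 3.12, and Tnc at 4.71 and 1.99.

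Of the enzymes that fold and process collagen, 28.6% of 21 tested were called after TAA and 47.6% after APAP, beside 25.8% and 56.2% of all genes. In the TAA model 4 rose (P4ha1 and P4ha2, prolyl 4-hydroxylase subunits, 0.90 ± 0.19 and 1.19 ± 0.26; P3h1, a prolyl 3-hydroxylase, 0.93 ± 0.18; and Plod3, a lysyl hydroxylase, 0.66 ± 0.14). Another 2 fell, Pcolce (-0.93 ± 0.25), which speeds the removal of the C-propeptide, and Mia3 (-0.73 ± 0.20), which loads procollagen for export. After APAP 3 rose (P4hb, 0.68 ± 0.13, P3h1, 1.23 ± 0.14, and Adamts2, the N-propeptide protease, 0.74 ± 0.22) and 7 fell, of which the 4 most abundant were Ppib (-0.60 ± 0.11), Mia3 (-1.04 ± 0.12), Bmp1 (-1.03 ± 0.11) and Plod1 (-0.45 ± 0.11). Plod3, singled out after its values were seen, was also among those that fell after APAP, -0.68 ± 0.13 (adjusted p = 0.00149). The list's median was 0.12 in both models.

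Among 5 crosslinking enzymes outside the matrix genes, Tgm2, tissue transglutaminase, rose in both models, from 153 and 136 to 706 and 548 CPM after TAA, 2.12 ± 0.22 (adjusted p = 0.00449), and from 68.5 and 68.6 to 444 and 419 CPM after APAP, 2.65 ± 0.12 (adjusted p = 1.56e-07). Loxl4, a lysyl oxidase, rose after TAA (2.85 ± 0.46), and Pxdn, the peroxidase that joins collagen IV, fell (-1.02 ± 0.27). Of 23 matrix receptors tested, 6 rose and 2 fell after TAA, and 7 rose and 3 fell after APAP, that is 34.8% and 43.5% called beside 25.8% and 56.2% of all genes, with medians of 0.29 and 0.18. The αv and β3 integrin chains, which bind fibronectin and tenascin-C among others, rose in both models (Itgav 1.61 ± 0.25 and 1.38 ± 0.13, Itgb3 1.41 ± 0.21 and 1.85 ± 0.18). The fibronectin receptor chain Itga5 (1.19 ± 0.14) and the laminin receptor chain Itga3 (1.09 ± 0.17) rose after TAA, and Itga7 (0.79 ± 0.19), another laminin receptor chain, and Sdc1 (0.50 ± 0.11), a syndecan, after APAP. A further laminin receptor chain, Itga6, rose in both models (2.57 ± 0.26 and 1.28 ± 0.28). Itga2 rose after APAP (4.75 ± 0.35), from 6 and 6 counts to 149 and 221. Itga6 and Itga2 were named after their values were seen. Sdc2, another syndecan, fell in both, -1.14 ± 0.19 and -1.65 ± 0.11, Itga8 fell after TAA (-3.02 ± 0.50) and rose after APAP (0.63 ± 0.20, adjusted p = 0.0210; named here after its values were seen), and Dag1 (-0.74 ± 0.11) and Itgb5 (-1.27 ± 0.12) fell after APAP.

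Markers of the cells that make matrix moved as follows, and their part in the changes above was not tested. Of all genes tested, 25.8% were called after TAA and 56.2% after APAP. The shares of stellate markers were 30.0% and 40.0%, of activated stellate 75.0% and 33.3%, and of portal fibroblast markers 33.3% and 28.6%. They were 40.0% and 80.0% for endothelial, 14.3% and 33.3% for bile duct and 60.0% and 20.0% for Kupffer cell markers. Of 10 hepatic stellate cell markers 1 rose and 2 fell after TAA (median -0.23), with a summed level of 201 to 321 CPM in PBS and 177 to 238 CPM in TAA livers, and 2 rose and 2 fell after APAP (median 0.11; 181 to 201 against 212 to 243 CPM). The 5 markers of activated stellate cells and smooth muscle summed to 5.96 to 8.52 CPM in PBS and 67.8 to 98.6 CPM in TAA livers, where 3 of 4 tested rose, and to 8.53 to 12.2 against 12.3 to 31.2 CPM in the APAP model, where 1 of 3 rose. The contractile genes Acta2 (4.37 ± 0.39) and Tagln (3.46 ± 0.29) were among those that rose after TAA, in livers where Col1a1 was not called. Cnn1 and Actg2 of that list had 0 counts in both PBS livers. Actg2, 1 of the 3 that rose after TAA, had 20 and 10 counts in the TAA livers. It passed the count filter through those livers alone. Of 6 portal fibroblast markers tested 2 fell after TAA and the other 4 were not called, and of 7 tested in the APAP model 1 rose and 1 fell. Sinusoidal endothelial markers rose in 2 and fell in 2 of 10 after TAA and rose in 4 and fell in 4 after APAP. Of bile duct markers 1 of 7 rose after TAA, and in the APAP model 1 of 6 rose while another fell. Of 6 mesothelial markers 0 were called by edgeR or DESeq2 in either model, with 2 lower after TAA and 1 higher after APAP at an unadjusted p under 0.05. Kupffer cell markers rose in 1 and fell in 2 of 5 after TAA and fell in 1 of 5 after APAP.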

How the data were processed

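RNA of 8 whole livers was sequenced, 2 in each of 4 groups. Per the labels, Trim Galore, HISAT2 and featureCounts were used with GRCm38 (mm10), without versions. The authors deposited raw counts per gene of the fed livers, PBS and TAA. For the Fasted_PBS and Fasted_APAP livers they deposited estimated counts, 27.0 to 29.7% of the values above 0 not whole, by a step not given in the sources used here. These were rounded, and rows of assembled loci with no Ensembl gene, 0.457 to 2.46% of a library, were left out. Whether strand was used in counting is not given either, so reads of genes with overlapping exons cannot be told apart. Each model's table was normalized on its own, and the 8 livers together for the difference between models.

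The count filter was edgeR's filterByExpr (at least 10 counts in the smaller group, 15 in all), scaling was by TMM, and genes were tested with edgeR 4.0.16 (robust quasi-likelihood F test, R 4.3.3, limma 3.58.1), with Benjamini-Hochberg adjustment over all genes tested and a threshold of 0.05. The SE of a log2 fold change is its size divided by the square root of F. Of the 69 genes, 54 passed the filter in the TAA model, 55 in the APAP model and 55 in the fit of the difference, and 13 in neither model. Gene models, biotypes and exon lengths are those of GENCODE vM21 (GRCm38), and 24 of the 69 genes share exon bases with another gene, 6 of them over 300. The members and gene lists were chosen with earlier results of these data known. Values per liver were given for a list of 30 genes, for the 10 genes of smallest p in each comparison and for further genes a comparison turned on. From each pathway list the 4 called genes of highest mean CPM in each direction were named. Alternatives were RLE scaling, library totals alone, DESeq2 1.42.0, no count filter, non-robust dispersions, the replicate block and leaving out each liver in turn. The scripts were tested on simulated data. The values of 1 gene are not reported here, though it stays in the counts and sums.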

Additional observations from a re-analysis of the deposited data

Results flagged for a closer look

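The change after TAA differed from the change after APAP for 7 of the 55 matrix genes tested, by edgeR's interaction test over all 8 livers. The difference was higher after TAA for Nid1 (1.82 on the log2 scale), Tnc (2.68) and Loxl2 (1.41), and higher after APAP for Dcn (-1.45), Col4a3 (-2.88), Lamb3 (-3.50) and Col4a4 (-4.30). For Col4a3 the controls themselves stood apart, at 5.60 and 5.58 CPM in fed and 1.46 and 0.831 CPM in fasted livers, each scaled within its own table. The treated livers stood at 0.383 and 0.472 CPM after TAA and 0.616 and 0.661 CPM after APAP. For Col4a4 the TAA livers had 3 and 9 counts, below the filter's 10 counts. Groups of 2 livers were too small for a test of single outlying livers.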

How the results depend on the processing

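No gene called in a comparison changed direction under the alternatives run. Without the count filter 2 basement membrane genes were higher after TAA in place of 4, and DESeq2 called 11 differences between the models in place of 7. Leaving out each liver in turn gave 2 to 5 interstitial genes higher and 1 to 11 lower after TAA, 1 to 4 basement membrane genes higher and 2 to 6 lower, 4 to 10 interstitial and 5 to 7 basement membrane genes higher after APAP, and 2 to 17 differences. With 1 liver left in a group, its spread is assumed to be that of the other group. DESeq2 kept all 20 calls after TAA and 26 of 32 after APAP. Library totals alone moved the median of all genes by 0.21 after TAA and 0.18 after APAP. The median of the basement membrane genes ran from -0.87 (without TAA replicate 2) to -0.07 (library totals) in the TAA model and from -0.05 to 0.23 in the APAP model, and that of the interstitial genes in the APAP model from -0.03 (without Fasted_APAP replicate 2) to 0.35. Without the multiplexins the basement membrane medians were -0.15 and 0.21, and without Fn1 the interstitial medians were -0.52 and 0.19.

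Same-numbered livers deviated together by a correlation of 0.0385 in the TAA model and 0.0707 in the APAP model, and the labels give only a number, so the numbers were not taken to pair the livers. With a replicate block, 4 interstitial and 3 basement membrane genes were higher after TAA and 5 of each class lower, 8 of each class were higher after APAP and 4 interstitial and 8 basement membrane genes lower, and 5 differences were called.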
